A study of Mus musculus with 24 samples.

Results

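The 9 genes described here carry iron and haem across cells or set how much iron is absorbed. They were listed by name, and each was measured by 1 probe set, so that they make 9 of the 18820 genes that could be named on the array. Cybrd1 reduces dietary iron at the enterocyte surface, Slc11a2 (also called DMT1) takes the reduced iron into the cell, and Slc46a1 carries folate and was first described as a haem carrier. Hmox1 breaks haem down and frees its iron, Slc40a1 (ferroportin) exports iron into the blood, and Heph (hephaestin) oxidizes the exported iron. Tfrc takes up transferrin-bound iron, Tfr2 is a sensor of transferrin iron in hepatocytes, and Hamp encodes hepcidin, the liver hormone that binds ferroportin and causes its loss from the cell surface.

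Iron is absorbed mainly in the duodenum. Enterocytes adjust uptake through iron regulatory proteins, which act on the mRNAs of genes such as Tfrc and Slc11a2, and through the oxygen-sensing factor encoded by Epas1, which can raise transcription of Cybrd1, Slc11a2 and Slc40a1. Hepatocytes adjust Hamp transcription through bone morphogenetic protein and SMAD signalling, which follows iron, and through STAT signalling, which follows inflammation.

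The series compared male mice lacking caspase-1 (Casp1-null), a protease of inflammasomes, with wild-type mice, on a C57BL/6 background, and its title places the question in the secretion of triglyceride-rich lipoproteins. There were 24 whole-transcript Affymetrix arrays in 8 groups of 3, made by 4 tissues (liver, duodenum, jejunum and ileum) and both genotypes. All mice ate chow and were 14 to 16 weeks old. Livers came from mice fasted for 16 h, and the epithelium of the 3 segments was scraped from fasted mice 2 h after 200 µL of olive oil by gavage, so tissue and feeding cannot be told apart between liver and intestine. No group was given iron or kept short of it. The null line had been backcrossed for 10 generations and the controls were age-matched C57Bl/6J mice, not stated to be littermates, so the deletion and what remained of the line's own background cannot be told apart. The labels do not say whether the arrays of a group came from separate mice, so p-values here measure the spread between arrays, part of which may be technical.

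Values are log2 intensities as deposited, and a difference of 1 is a 2-fold change. Levels were compared between groups within a probe set and never between genes, since probe sets differ in brightness. Each tissue's dimmest array set a background line at its own median (4.874 in intestine, 5.187 in liver). A group whose mean fell under that line is described as not shown above background, and where only one of the groups compared fell under it, the fold is given as a lower bound beside the fitted log2 difference. A difference is called changed where limma's Benjamini-Hochberg adjusted p over 35556 probe sets is under 0.05. In scraped tissue and in whole liver, fewer cells of a type and less RNA per cell cannot be told apart.

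The arrays matched their tissue labels. Alb averaged 13.45 in wild-type liver and 4.41 in wild-type jejunum, Pdx1 averaged 10.08 in wild-type duodenum, and Fabp6 averaged 12.49 in wild-type ileum. Casp1 was lower in the null groups of all 3 segments, with differences of -2.08 in duodenum, -3.07 in jejunum and -2.22 in ileum (adjusted p at most 0.000166), and it was not shown above background in liver of either genotype, where the array gives no check of the deletion. A set of 3 arrays stood far apart in markers of other cells. Wild-type duodenal array 1 averaged 10.34 over 9 exocrine pancreas genes, against 4.75 to 5.14 on the other intestinal arrays. Wild-type ileal array 2 and Casp1-null ileal array 3 averaged 9.02 and 8.53 over 8 smooth muscle and stroma genes, against 4.50 to 4.78 on the other ileal arrays. Over the genotype and segment comparisons that use them, 12 of 13 calls on the 9 genes held without the duodenal array and 15 of 17 without both ileal arrays. The exceptions, both in wild-type mice, were Heph between duodenum and ileum under either omission and Slc46a1 between jejunum and ileum without the ileal arrays. Smaller shifts in the 8 stroma genes were on Casp1-null liver array 1 (6.605, against 5.25 to 5.87 on the other liver arrays) and Casp1-null jejunal array 3 (5.68, against 4.57 to 4.90 on the other jejunal arrays).

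The promoter sequences of the hepcidin genes and of Cybrd1 are shown first. They are the 250 bases before the start of transcription from RefSeq on GRCm38.p6, which held 5 of the 9 genes (Cybrd1, Slc46a1, Tfrc, Tfr2 and Hamp). The mouse has a second hepcidin gene, Hamp2, which is not known to act on iron, and the pair is set side by side to show where the windows differ. Whether these sequences bear on the level of either gene was not tested. Hamp is at chr7:30944030-30944279 and Hamp2 at chr7:30924182-30924431, both on the minus strand and both written 5′ to 3′ along the gene. Capitals mark matches, on either strand, to GGCGCC, a bone morphogenetic protein response element, and to TTCNNNGAA, a STAT motif. The capitals in the promoters do not overlap one another.

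Hamp: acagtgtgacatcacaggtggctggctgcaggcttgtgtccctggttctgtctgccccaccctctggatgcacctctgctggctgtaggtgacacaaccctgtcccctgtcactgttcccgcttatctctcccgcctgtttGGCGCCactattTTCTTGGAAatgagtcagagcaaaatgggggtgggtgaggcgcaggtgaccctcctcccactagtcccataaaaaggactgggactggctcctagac

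Hamp2: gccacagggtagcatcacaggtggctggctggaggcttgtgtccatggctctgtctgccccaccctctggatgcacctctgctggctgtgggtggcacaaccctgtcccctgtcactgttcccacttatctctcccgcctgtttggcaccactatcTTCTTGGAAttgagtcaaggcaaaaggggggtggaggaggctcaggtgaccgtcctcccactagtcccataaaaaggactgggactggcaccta

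The windows were 89.7% identical over 253 aligned columns, with 20 substitutions. Hamp held GGCGCC from 109 to 104 bases before the start and TTCTTGGAA from 97 to 89 bases before it. Hamp2 kept TTCTTGGAA, from 94 to 86 bases before its start, and in the columns of GGCGCC it read GGCACC, which is G4A counted from the first base of the Hamp motif. Of 32851 mouse promoter windows of this length, 9.59% held GGCGCC and 7.02% held TTCNNNGAA, so a match alone is common.

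Cybrd1 is shown because its values spread most among the arrays of one group, with an SD of 2.00 in Casp1-null ileum. Its window is chr2:71117804-71118053 on the plus strand, with capitals for GGCGCC and for GCGTG, a core of hypoxia response elements.

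Cybrd1: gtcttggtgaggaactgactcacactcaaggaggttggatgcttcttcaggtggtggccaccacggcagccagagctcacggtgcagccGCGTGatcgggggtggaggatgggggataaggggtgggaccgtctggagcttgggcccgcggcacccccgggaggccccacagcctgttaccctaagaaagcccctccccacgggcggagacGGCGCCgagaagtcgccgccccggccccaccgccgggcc

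It held GCGTG from 161 to 157 bases before the start and GGCGCC from 39 to 34 bases before it. The other core searched, ACGTG, was not in this window. Of all windows, 28.2% held GCGTG and 38.6% held one core or the other.

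Uptake genes were highest in the duodenum. Cybrd1, the surface ferric reductase, read 10.74, 8.32 and 8.58 on the wild-type duodenal arrays, 4.64, 4.64 and 4.60 on the jejunal arrays and 4.59, 5.54 and 4.92 on the ileal arrays. All 3 duodenal arrays lay above every jejunal and ileal array of that genotype, and the jejunal mean was not shown above background. The duodenal level was at least 20.3-fold higher than the jejunal one (log2 difference 4.59, adjusted p = 0.00352) and 18.3-fold higher than the ileal one (4.20 ± 0.82 SE, adjusted p = 0.00159). The highest wild-type duodenal value was on array 1, which also carried the pancreatic RNA. Without that array the log2 differences were 3.83 from jejunum (adjusted p = 0.022) and 3.43 from ileum (adjusted p = 0.0103).

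In Casp1-null mice Cybrd1 read 9.90, 10.65 and 12.25 in duodenum, 4.90, 4.78 and 4.97 in jejunum, and 5.72, 6.65 and 9.56 in ileum. The duodenal arrays again lay above all others, and the ileal arrays spread widely, from 5.72 to 9.56. Duodenum exceeded jejunum by 6.05 ± 0.82 (adjusted p = 0.000417) and ileum by 3.63 ± 0.82 (adjusted p = 0.0062), and the latter difference was 4.75 without the stroma-rich ileal arrays (adjusted p = 0.000312). Cybrd1 was not shown above background in liver, at 4.31 ± 0.09 (SD, n = 3) in wild-type and 4.55 ± 0.10 (SD, n = 3) in Casp1-null mice.

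Slc11a2, the importer that works downstream of Cybrd1, had a shallower gradient. It read 10.81, 9.66 and 9.99 in wild-type duodenum, 8.57, 8.75 and 8.71 in jejunum, and 8.85, 8.51 and 8.97 in ileum. Every duodenal array was above every jejunal and ileal array, while the latter groups overlapped. Duodenum was 2.78-fold higher than jejunum (1.48 ± 0.24 SE, adjusted p = 0.00159) and 2.60-fold higher than ileum (1.38 ± 0.24, adjusted p = 0.000599), and jejunum and ileum differed by -0.10 (adjusted p = 0.849). Without duodenal array 1 the differences from jejunum and ileum were 1.15 (adjusted p = 0.00405) and 1.05 (adjusted p = 0.00165). In the Casp1-null segments the arrays read 9.60, 10.11 and 10.13 in duodenum, 8.17, 7.79 and 8.12 in jejunum, and 8.91, 8.51 and 8.82 in ileum. Here all 3 jejunal arrays lay under all 3 ileal arrays, but the difference of -0.72 missed the threshold (adjusted p = 0.0754). Liver held 7.73 ± 0.14 (SD, n = 3) in wild-type and 7.79 ± 0.34 (SD, n = 3) in Casp1-null mice.

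Slc46a1, the folate and haem carrier, was highest in duodenum and lowest in ileum along the wild-type gut. Its wild-type arrays read 12.43, 12.39 and 12.32 in duodenum, 8.24, 9.26 and 8.34 in jejunum, and 7.57, 6.93 and 7.21 in ileum, with no overlap between segments. Duodenum was 13.6-fold above jejunum (3.77 ± 0.41 SE, adjusted p = 4.16e-05) and 35.4-fold above ileum (5.14 ± 0.41, adjusted p = 3.61e-07), and jejunum was 2.60-fold above ileum (1.38 ± 0.41, adjusted p = 0.0389). The last of these was lost when any one of the 3 jejunal arrays or of ileal arrays 2 and 3 was left out (adjusted p up to 0.157), and without both stroma-rich ileal arrays (1.22, adjusted p = 0.0771). The Casp1-null arrays read 12.51, 12.35 and 12.30 in duodenum, 9.83, 8.67 and 8.94 in jejunum, and 8.66, 7.41 and 9.37 in ileum. The duodenum stood apart there too, by 3.24 from jejunum (adjusted p = 0.000204) and 3.90 from ileum (adjusted p = 8.94e-06), whereas jejunum and ileum overlapped (0.67, adjusted p = 0.384). Liver was second to duodenum, at 9.76 ± 0.10 (SD, n = 3) in wild-type and 9.67 ± 0.22 (SD, n = 3) in Casp1-null mice.

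Hmox1, haem oxygenase, was higher in the duodenum with a wide spread. Wild-type arrays read 7.04, 8.54 and 8.00 in duodenum, 6.75, 5.67 and 6.04 in jejunum, and 5.79, 6.07 and 5.66 in ileum. The duodenal arrays lay above all others, though array 1 was close to the highest jejunal array. The difference from jejunum was 1.70 ± 0.46 SE (adjusted p = 0.04) and from ileum 2.02 ± 0.46 (adjusted p = 0.00458). In Casp1-null mice the arrays read 8.49, 6.90 and 8.00 in duodenum, 5.65, 6.07 and 6.35 in jejunum, and 5.89, 5.54 and 6.99 in ileum, where the duodenal and ileal groups overlapped. The differences were 1.77 from jejunum (adjusted p = 0.0418) and 1.66 from ileum (adjusted p = 0.0209). Of these 4 calls, those between duodenum and jejunum in both genotypes and between duodenum and ileum in Casp1-null mice were lost when single arrays were left out, and the adjusted p rose to 0.174, 0.166 and 0.098 at most over the alternatives.

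**Figure D1:**
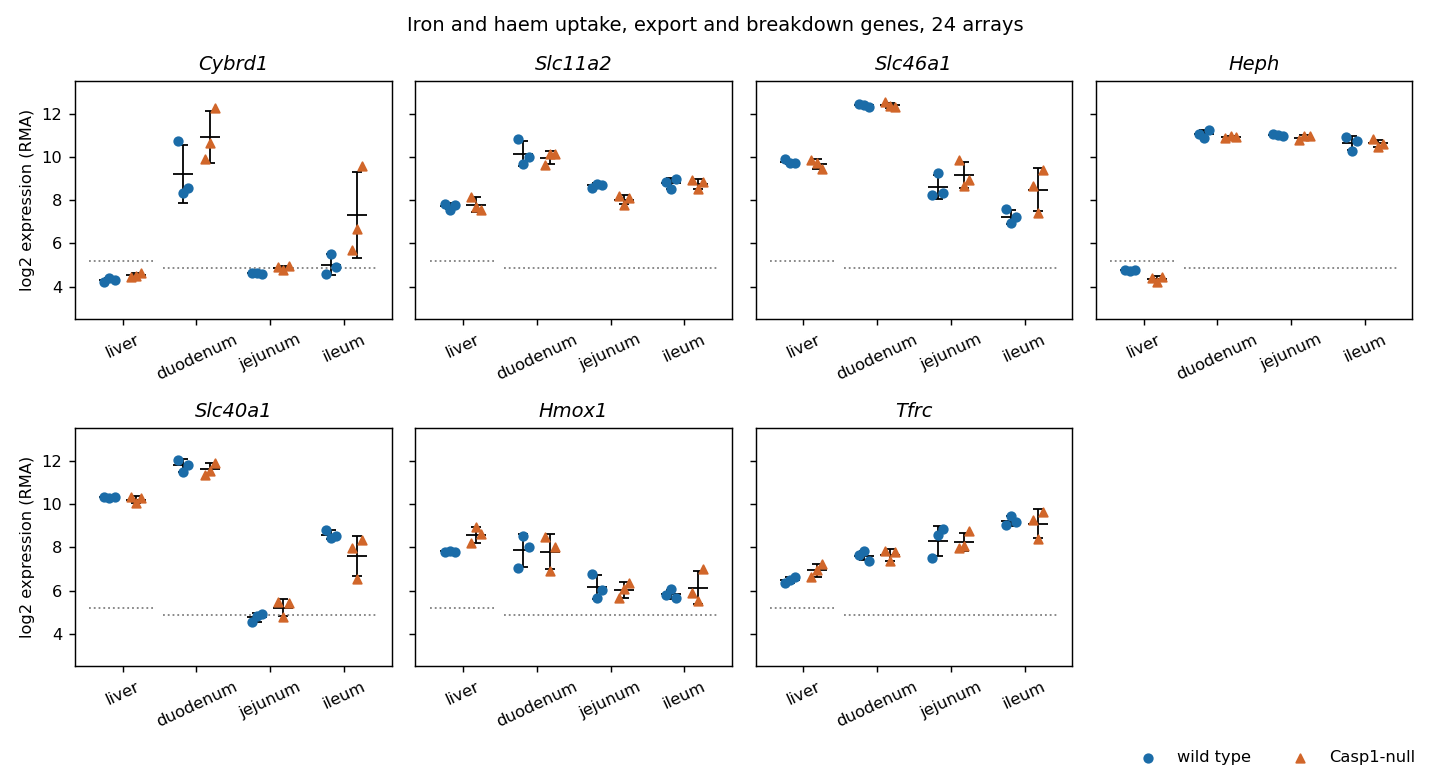
Log2 expression of 7 uptake, export and breakdown genes on each of the 24 arrays, by tissue and genotype, with the group mean and SD as bars (n = 3) and dotted lines at the lowest array median of intestine (4.874) and of liver (5.187). Cybrd1, Slc11a2 and Slc46a1 sit highest in duodenum, Slc40a1 drops to the dotted line in jejunum and returns in ileum, Heph is nearly level along the gut and under the line in liver, and Tfrc climbs toward the ileum.

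Export genes did not share one pattern. Slc40a1, ferroportin, read 12.05, 11.47 and 11.81 on the wild-type duodenal arrays, 4.54, 4.84 and 4.93 on the jejunal arrays and 8.81, 8.42 and 8.50 on the ileal arrays. The segments did not overlap, and the lowest was the middle one: the jejunal mean was not shown above background, and the ileum lay between it and the duodenum. Duodenum was at least 119.7-fold above jejunum (log2 difference 7.01, adjusted p = 2.4e-08) and 9.18-fold above ileum (3.20 ± 0.35 SE, adjusted p = 8.32e-06), and ileum was at least 13.0-fold above jejunum (3.81, adjusted p = 4.63e-06). Casp1-null arrays read 11.35, 11.54 and 11.90 in duodenum, 5.47, 4.77 and 5.41 in jejunum, and 7.95, 6.53 and 8.31 in ileum. The order was the same, with duodenum 83.4-fold above jejunum (adjusted p = 5.67e-08) and 16.0-fold above ileum (adjusted p = 1.36e-06), and ileum 5.21-fold above jejunum (adjusted p = 0.000449). These 6 calls held when any single array, or both stroma-rich ileal arrays, were left out. Liver, where macrophages and hepatocytes export iron, held 10.30 ± 0.02 (SD, n = 3) in wild-type and 10.20 ± 0.16 (SD, n = 3) in Casp1-null mice.

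Heph, the ferroxidase that works beside ferroportin, was nearly level along the gut. It read 11.05, 10.88 and 11.24 in wild-type duodenum, 11.05, 11.03 and 10.98 in jejunum, and 10.92, 10.29 and 10.73 in ileum. Duodenum and jejunum overlapped and differed by 0.04 (adjusted p = 0.944), where ferroportin differed at least 119.7-fold. The wild-type difference between duodenum and ileum was 0.41 ± 0.14 SE (adjusted p = 0.0482). That call held under 5 of 13 alternatives. It was lost with quantile normalization again, with the replicate block, with arrays of 1 genotype, without duodenal array 1 or 3 or ileal array 2 or 3, and without both stroma-rich arrays (0.23, adjusted p = 0.249). Casp1-null arrays lay between 10.44 and 10.97 over the 3 segments, with no called difference. Heph was not shown above background in liver, at 4.77 ± 0.04 (SD, n = 3) in wild-type and 4.37 ± 0.11 (SD, n = 3) in Casp1-null mice.

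Tfrc, which serves transferrin uptake in dividing cells, ran opposite to the uptake genes. It read 7.65, 7.82 and 7.39 in wild-type duodenum, 7.52, 8.57 and 8.83 in jejunum, and 9.02, 9.46 and 9.19 in ileum. The ileal arrays were above all others, while duodenum and jejunum overlapped. Duodenum was lower than ileum by 1.60 ± 0.34 SE in wild-type (log2 difference -1.60, adjusted p = 0.0029) and differed by -1.44 in Casp1-null mice (adjusted p = 0.00834), whose arrays read 7.83, 7.35 and 7.80 in duodenum, 7.97, 8.08 and 8.74 in jejunum, and 9.28, 8.38 and 9.64 in ileum. Without the stroma-rich ileal arrays these differences were -1.49 (adjusted p = 0.012) and -1.17 (adjusted p = 0.0457). The differences between jejunum and ileum, -0.92 and -0.84, missed the threshold (adjusted p = 0.101 and adjusted p = 0.158). A list of 7 measured genes of proliferating crypt cells moved with Tfrc, averaging 5.41 to 6.67 on duodenal arrays, 6.14 to 7.27 on jejunal arrays and 7.75 to 9.18 on ileal arrays, and its part in the result was not tested. Liver was lowest, at 6.49 ± 0.16 (SD, n = 3) in wild-type and 6.93 ± 0.29 (SD, n = 3) in Casp1-null mice.

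Over the wild-type segments, 6 of the 9 genes changed between duodenum and jejunum (5 higher in duodenum), where 5.96% of all probe sets were called. Between duodenum and ileum 7 of 9 changed (6 higher in duodenum), against 23% of probe sets, and between jejunum and ileum 3 of 9 (2 higher in jejunum), against 11.8%. In Casp1-null mice the counts were 5 of 9 (all higher in duodenum) against 3.97%, 6 of 9 (5 higher in duodenum) against 16.5%, and 1 of 9 (lower in jejunum) against 9.69%. Each segment enters a pair of these comparisons, so the counts are not independent. The median log2 difference of the 9 genes between wild-type duodenum and jejunum was 1.48, beside 0.02 over all probe sets.

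Hamp was a liver gene with a faint signal in one intestinal group. It read 11.48, 11.21 and 11.33 in wild-type liver and 11.26, 11.82 and 12.29 in Casp1-null liver. Among the 18 intestinal arrays the 3 from wild-type jejunum read 5.62, 5.65 and 4.94, and the other 15 lay between 3.50 and 4.24. The wild-type jejunal arrays were therefore above every other intestinal array, but array 3 was under the highest array median of the intestine (5.005), and the other 5 intestinal groups were not shown above background. Wild-type jejunum was called higher than wild-type duodenum (log2 difference 1.70, adjusted p = 4.97e-05) and ileum (1.54, adjusted p = 7.77e-05), and in both cases the bound against background is at least 1.44-fold.

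Hamp2 differed less between tissues. Its wild-type liver arrays lay above every wild-type intestinal array (at most 6.42), a difference that was not tested. Hamp2 read 6.91, 6.94 and 6.52 in wild-type liver, 6.40, 6.84 and 6.56 in Casp1-null liver, and 5.76 to 6.56 on the intestinal arrays, without a called difference between genotypes or segments. The jejunal difference in Hamp was not accompanied by one in Hamp2, whose jejunal groups differed by -0.05 (adjusted p = 0.976). Because probe sets differ in brightness, the level of Hamp2 cannot be set against that of Hamp.

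Tfr2, the hepatocyte sensor upstream of Hamp, read 10.51, 10.31 and 10.47 in wild-type liver and 10.39, 10.55 and 10.07 in Casp1-null liver. The groups overlapped. On all 18 intestinal arrays it lay between 3.10 and 3.88 and was not shown above background.

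**Figure D2:**
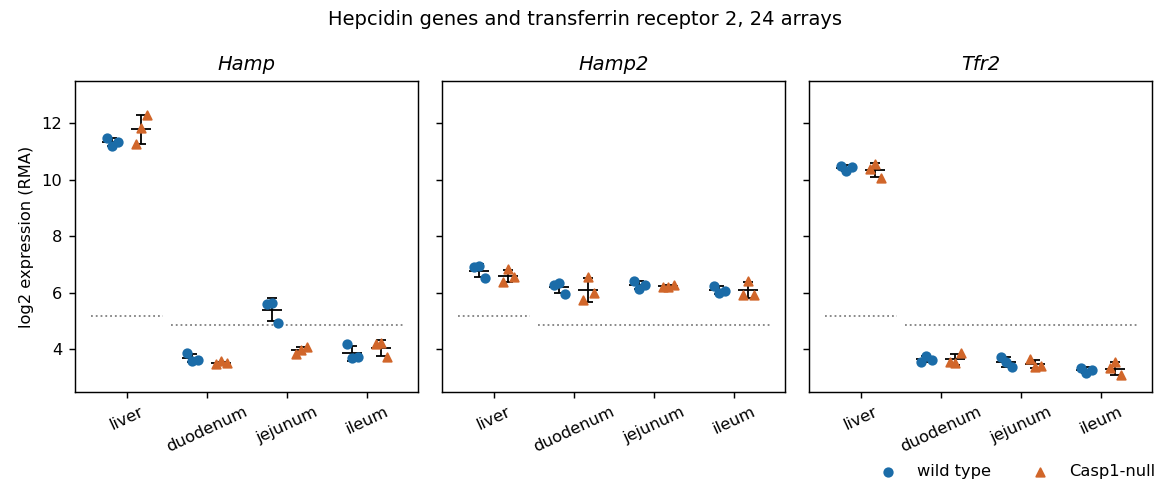
Log2 expression of Hamp, Hamp2 and Tfr2 on each of the 24 arrays by tissue and genotype, with group mean and SD (n = 3) and dotted lines at the lowest array median of intestine (4.874) and liver (5.187). Hamp is above 11 in liver and crosses the dotted line in intestine only in wild-type jejunum, and Tfr2 is above the line only in liver. Hamp2 lies between 5.76 and 6.94 over all tissues, with wild-type liver above the wild-type segments.

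The order of the 8 groups shows which neighbours differ beyond their spread. For Slc40a1 the wild-type and Casp1-null groups overlapped in duodenum, in liver and in jejunum but not in ileum, with gaps between tissues of 1.29 from duodenum to liver, 1.63 from liver to ileum and 2.38 from ileum to jejunum. For Cybrd1 the Casp1-null ileum overlapped the wild-type duodenum, since its highest array (9.56) lay above the lowest duodenal ones. For Slc11a2 the ileal groups and wild-type jejunum overlapped, as did Casp1-null jejunum and both liver groups. Slc46a1 had a gap of 2.62 under the duodenal pair, and every neighbouring pair below it overlapped. For Heph the means of the 6 intestinal groups lay within 10.62 to 11.06, and 5.84 separated them from liver. For Hmox1 both liver and both duodenal groups formed the upper 4, all neighbours overlapping, with a gap of 1.64 to the other 4. For Tfrc every neighbour overlapped except Casp1-null jejunum over Casp1-null duodenum and wild-type duodenum over Casp1-null liver. In wild-type mice the jejunal and duodenal arrays of Tfrc overlapped. Liver against intestine was not tested, because the mice differed in feeding.

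The genotype comparison asked whether loss of caspase-1 altered these genes in each tissue. A single value passed: Hamp was lower in Casp1-null jejunum. The counts of changed genes were 0 of 9 in liver (0.726% of all probe sets), 0 of 9 in duodenum (1.03%), 1 of 9 in jejunum (1.63%) and 0 of 9 in ileum (0.726%). At an unadjusted limma p under 0.05 they were 3, 0, 2 and 3, beside 4144, 4466, 4014 and 2335 of all 35556 probe sets. The 3 in liver include Heph, which was not shown above background in either genotype. The median log2 difference over the 9 genes lay between -0.06 and 0.06 in the 4 tissues.

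In jejunum, Hamp went from 5.62, 5.65 and 4.94 on the wild-type arrays to 3.84, 3.97 and 4.10 on the Casp1-null arrays. The groups did not overlap, and the Casp1-null group lay at the level of duodenum and ileum. The fitted log2 difference was -1.43 (adjusted p = 0.000814), and against background the fall was at least 1.44-fold. The call held when each array was left out (adjusted p at most 0.00729). It did not hold with the replicate number as a block on the 6 jejunal arrays, and the filter on dim probe sets removed the gene. Same-numbered arrays of the genotypes come from different mice. Over 6 measured hepatocyte genes the jejunal arrays averaged 5.86 to 6.09 in wild-type and 5.86 to 6.22 in Casp1-null mice, with 0 of 6 called (limma). Single genes of that list went both ways: Tat averaged 5.88 in wild-type and 4.28 in Casp1-null jejunum (adjusted p = 0.133), and Alb 4.41 and 5.54 (adjusted p = 0.529). Alb, Fgb and Cyp2e1 were not shown above background in wild-type jejunum. A list of 12 macrophage genes averaged 4.97 to 5.33 on the wild-type arrays and 5.26 to 6.49 on the Casp1-null arrays, with 0 of 12 called, and the part of either list in the result was not tested.

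Slc11a2 also separated the genotypes in jejunum without passing the test. Its Casp1-null arrays (7.79 to 8.17) all lay under the wild-type arrays (8.57 to 8.75), with a difference of -0.65 ± 0.24 SE (95% interval -1.16 to -0.14, adjusted p = 0.262). Slc40a1 (0.45, adjusted p = 0.739) and Slc46a1 (0.54, adjusted p = 0.73) overlapped between the genotypes there.

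In liver, Hmox1 read 7.79, 7.84 and 7.80 in wild-type and 8.19, 8.93 and 8.61 in Casp1-null mice. Every Casp1-null array was above every wild-type array, and the wild-type arrays lay close together. The difference was 0.77 ± 0.18 SE (1.70-fold, 95% interval 0.33 to 1.20), which missed the threshold over all probe sets (adjusted p = 0.163). It passed without Casp1-null array 1 (0.96, adjusted p = 0.0337), the liver array highest in stroma markers (6.605). Macrophages of the liver express Hmox1. The 12 macrophage genes averaged 8.04 to 8.52 on the wild-type and 8.06 to 8.72 on the Casp1-null liver arrays, with 0 of 12 called, and their part in the result was not tested.

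Hepcidin itself was not called in liver. Casp1-null arrays 2 and 3 were above all wild-type arrays and array 1 lay within them, and the difference was 0.46 ± 0.25 SE (95% interval -0.14 to 1.05, adjusted p = 0.557). The interval includes both no change and a 2-fold rise. Tfrc differed by 0.44 (adjusted p = 0.371) with groups that met at 6.64, and Tfr2, Slc40a1, Slc46a1 and Slc11a2 differed by at most 0.10 in size with overlapping arrays. No size is given for Cybrd1 and Heph, which were not shown above background in either genotype. Among 21 genes that regulate hepcidin 0 were called in liver, with averages of 8.36 to 8.50 on the wild-type and 8.24 to 8.38 on the Casp1-null arrays. The 11 acute phase genes averaged 9.80 to 9.95 and 10.05 to 10.47, and 1 of them was called.

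In duodenum, Cybrd1 had the widest gap between genotypes. Its groups, 8.32 to 10.74 in wild-type and 9.90 to 12.25 in Casp1-null mice, overlapped through wild-type array 1, and the difference was 1.72 ± 0.82 SE (95% interval -0.03 to 3.48, adjusted p = 0.41). The array without which the groups would not overlap is the one with pancreatic RNA, and leaving it out raised the difference to 2.49 without a call. Slc46a1 differed by 0.005 (95% interval -0.86 to 0.87), and the other 5 genes shown above background by at most 0.20 in size.

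In ileum Cybrd1 and Slc40a1 separated the genotypes without passing. Cybrd1 read 4.59, 5.54 and 4.92 in wild-type and 5.72, 6.65 and 9.56 in Casp1-null mice, without overlap, a difference of 2.29 ± 0.82 SE (95% interval 0.54 to 4.05, adjusted p = 0.463). Slc46a1 went from 7.57, 6.93 and 7.21 to 8.66, 7.41 and 9.37 (1.25 ± 0.41, adjusted p = 0.348), with overlapping groups. Slc40a1 went the other way, from 8.81, 8.42 and 8.50 to 7.95, 6.53 and 8.31, without overlap (-0.98 ± 0.35, adjusted p = 0.44). The highest Cybrd1 and Slc46a1 values were on Casp1-null array 3, which is rich in stroma markers and highest of the ileal arrays in 3 proximal intestine genes (6.09, against 4.54 to 5.07 on wild-type and 5.29 to 5.50 on the other Casp1-null arrays). The mean of the 8 enterocyte genes also differed by genotype, at most 11.59 on the wild-type arrays and 11.61 to 11.81 on the Casp1-null arrays. Of these genes Fabp1, a fatty acid binding protein, was called (9.09 and 10.85, adjusted p = 0.000381), while Lct, lactase, was not (6.15 and 7.37, adjusted p = 0.346). The other enterocyte genes differed by between -0.06 and 0.23 without a call, so the shift in the mean came mostly from Fabp1 and Lct. The part of these markers in the result was not tested. Without the stroma-rich arrays the differences were 1.43 for Cybrd1, 0.65 for Slc46a1 and -1.42 for Slc40a1, none called. Slc46a1 was called without Casp1-null array 2 (adjusted p = 0.0296).

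**Figure D3:**
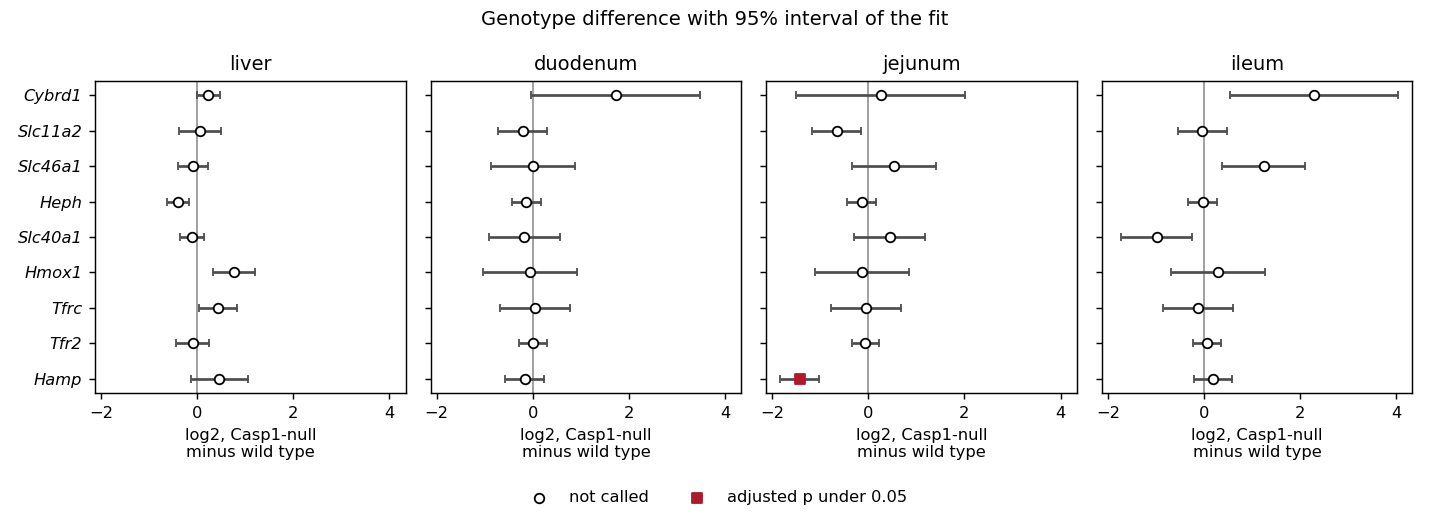
Casp1-null minus wild-type log2 difference of each gene in each tissue, with the unadjusted 95% interval of the limma fit (3 arrays against 3). The filled square is Hamp in jejunum (-1.43), the single value with an adjusted p under 0.05, and the widest intervals are those of Cybrd1 in the intestine.

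Whether the genotype difference itself differed between tissues was tested directly. For duodenum against jejunum 0 of 9 genes were called (0.0337% of probe sets), for ileum against duodenum 0 of 9 (0.0562%), for ileum against jejunum 0 of 9 (0.0281%), and for liver against the mean of the segments 0 of 9 (2.01%). At an unadjusted limma p under 0.05 there were 1, 1, 2 and 1, beside 1728, 2221, 1802 and 4472 of all 35556 probe sets. For Hamp the adjusted p was 0.0603 for ileum against jejunum, 0.318 for duodenum against jejunum and 0.0678 for liver against the segments. No size is given for these, because wild-type jejunum was the one intestinal group in which Hamp was shown above background. Each became a call without wild-type jejunal array 3, and those of ileum against jejunum and of liver against the segments also under other alternatives. The jejunal difference in Hamp is thus not shown to differ from that of another tissue.

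Other genes of iron and haem handling were read from 8 lists with 90 measured genes. Between wild-type duodenum and jejunum 18 of 90 were called (12 higher in duodenum), between duodenum and ileum 42 of 90 (24 higher in duodenum), and between jejunum and ileum 26 of 90 (14 higher in jejunum). As shares these are 20%, 46.7% and 28.9%, beside the 5.96%, 23% and 11.8% of all probe sets. The medians over the 90 genes were 0.06, 0.09 and 0.01, beside 0.02, 0.06 and 0.03 over all probe sets, and the calls ran in both directions. Plasma iron and haem carriers had 0 of 8 called in all 3 comparisons (limma).

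By genotype the lists held 2 called genes of 90 in liver (2.22%, beside 0.726% of all probe sets), 3 in duodenum (3.33%, beside 1.03%), 5 in jejunum (5.56%, beside 1.63%) and 1 in ileum (1.11%, beside 0.726%). Of these 11 calls 3 held when each array was left out in turn: Alad in jejunum and ileum, and Lbp in jejunum. The other 8 were lost without at least 4 of the 6 arrays compared. Alad, which makes porphobilinogen in haem synthesis, was higher in the Casp1-null group of each segment: 11.30 against 10.75 in duodenum (0.54 ± 0.12 SE, adjusted p = 0.0353), 11.02 against 10.17 in jejunum (0.86 ± 0.12, adjusted p = 0.00113) and 10.79 against 9.78 in ileum (1.01 ± 0.12, adjusted p = 0.000251). In liver it differed by -0.01 (adjusted p = 0.995). The duodenal call was lost without wild-type array 1 (0.44, adjusted p = 0.145), and without the stroma-rich arrays the ileal difference was 1.03 (adjusted p = 0.00475). Within single tissues no other of the 15 haem genes was called by genotype.

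Where the genotype difference in liver was set against the mean of the segments, 6 of 90 were called (6.67%, beside 2.01% of all probe sets), 3 in each direction. Of the haem list these were Alad (-0.81, adjusted p = 0.00454), Cpox, coproporphyrinogen oxidase (0.87, adjusted p = 0.0209), and Fech, which inserts iron into protoporphyrin (-0.47, adjusted p = 0.0446). Cpox differed by 0.86 in liver and between -0.13 and 0.24 in the segments, and Fech by -0.24 in liver and between 0.14 and 0.33 in the segments. The others were Scara5, a ferritin receptor (1.81, adjusted p = 0.0273), Pdk1 (-1.06, adjusted p = 0.00285) and Apcs (1.31, adjusted p = 1.12e-05).

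Among hepcidin regulators Bmp2, a ligand of the pathway, was lower in Casp1-null duodenum (-1.25, adjusted p = 0.0447, and -1.37, adjusted p = 0.067, without wild-type array 1), and Smad5, a transducer of it, was higher in Casp1-null jejunum (0.55, adjusted p = 0.0338). Lbp, a lipopolysaccharide-binding acute phase protein, was higher in Casp1-null duodenum (1.45, adjusted p = 0.0338, and 1.48, adjusted p = 0.0837, without that array) and jejunum (1.94, adjusted p = 0.00349), and Apcs, serum amyloid P, was higher in Casp1-null liver (1.30, adjusted p = 0.0408). In jejunum Epas1, the oxygen-sensing factor of enterocytes, was higher by 0.59 (adjusted p = 0.0493), a call lost when any 1 of the 6 arrays was left out. Of the 3 genes named above that Epas1 can raise, Slc11a2 was lower in that segment (-0.65, adjusted p = 0.262) and Slc40a1 higher (0.45, adjusted p = 0.739), neither called. Cybrd1 had group means of 4.63 and 4.88, at or near the background line of 4.874. A link of Epas1 to these genes was not tested. Ndrg1, a gene raised by hypoxia, was higher there by 1.28 (adjusted p = 0.0431), and Pdk1, another of the 10 hypoxia genes, was lower in Casp1-null liver by 0.77 (log2 difference -0.77, adjusted p = 0.0385). Ferritin genes and other iron transporters had no called member in any tissue by genotype.

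The genes whose pattern was most like each member were found by Pearson's r over the 18 intestinal arrays. Candidates were 10723 genes whose mean over those arrays was at or above the background line, so a gene could pass through 1 segment alone. These correlations describe the arrays and carry no test, because the groups share segment differences. Within-group values, after each group's mean was removed, are given beside them. The closest to Cybrd1 were Ctse, the aspartic protease cathepsin E, with r = 0.98 (0.95 within groups), Abcc5, an efflux transporter, with 0.98 (0.89), and Trpv6, an apical calcium channel, with 0.94 (0.84). Trpv6 lay under the background line on every jejunal array (3.75 to 4.10) and on every ileal array except Casp1-null array 3 (5.01). On Casp1-null ileal array 3, where Cybrd1 read 9.56, Ctse read 9.24 against 5.41 to 6.94 on the other ileal arrays. On wild-type duodenal array 1 Ctse read 11.93 against 9.69 and 10.31 on the other wild-type arrays. Ctse was picked for its likeness over these same arrays, so these values describe that likeness and are no evidence for it.

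**Figure D4:**
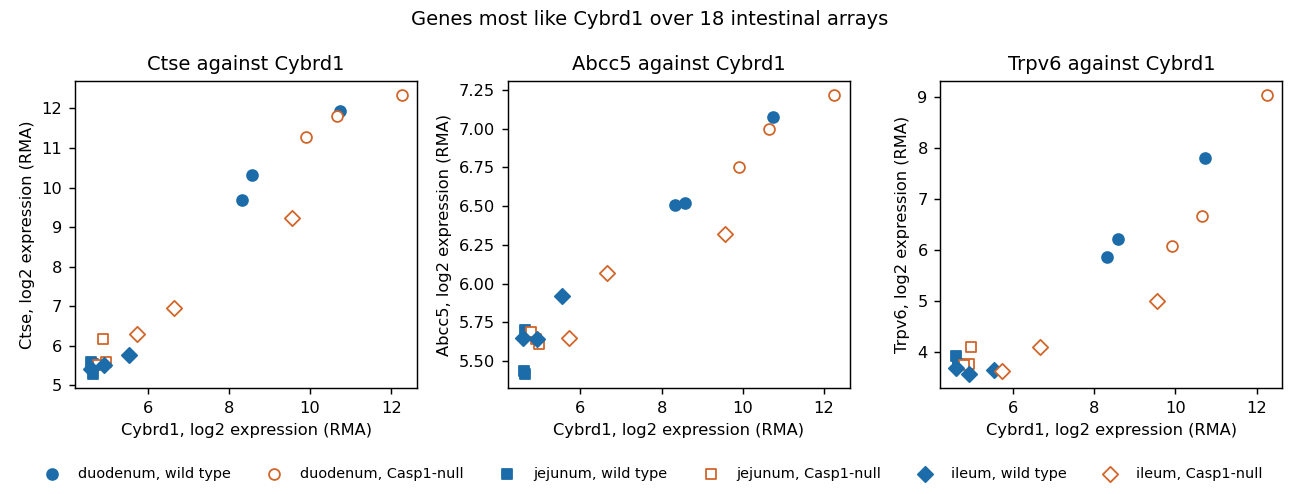
Log2 expression of Ctse, Abcc5 and Trpv6 (vertical axes) against Cybrd1 (horizontal axes) on the 18 intestinal arrays, by segment and genotype. Jejunal and most ileal arrays cluster at the low end, and duodenal arrays lie at the high end. Casp1-null ileal array 3 (Cybrd1 9.56) lies within the duodenal range on the horizontal axes and between the clusters on the vertical axes of all 3 panels.

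Slc40a1 was most like S100g, a calcium-binding protein of enterocytes, with r = 0.96 (0.61 within groups), Ank with 0.95 (-0.17) and Tspan12 with 0.95 (0.24), so its likeness to the last pair came from differences between groups. For Slc46a1 the closest were Pcnx (0.98, and 0.72 within groups), Ncoa4, the receptor that delivers ferritin for breakdown (0.98 and 0.67), and Echs1 (0.98 and 0.50). For Slc11a2 they were Ces2b (0.94 and 0.62), Caprin2 (0.93 and 0.44) and Add2 (0.93 and 0.74). For Tfrc they were Rpl3, a ribosomal protein (0.94 and 0.85), Acvr1c (0.94 and 0.83) and Zfp704 (0.93 and 0.74). For Heph they were Smpdl3b (0.91 and 0.82), Slc41a2 (0.91 and 0.79) and Lcorl (0.90 and 0.85), and for Hmox1 Ephx1 (0.90 and 0.54), Aldh2 (0.87 and 0.35) and Opn3 (0.86 and 0.25). Over the 6 liver arrays Hamp was most like Skil, a repressor in SMAD signalling (0.996), Tpd52 (0.995) and Cdc42ep5 (0.992), and Tfr2 was most like Mrps16 (0.997), Zscan29 (0.996) and Sin3a (0.995). Over 6 arrays and 10532 candidate genes such values rest on few points.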

How the data were processed

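RNA from 24 samples was hybridised to Affymetrix whole-transcript arrays. The authors deposited RMA log2 values, per the submitters' processing notes, and these were used unaltered, with no counts and so no depth: precision is limited by the 3 arrays a group. Of 35556 probe sets, 21218 had 1 gene symbol in the platform annotation, 1881 several and 12457 none. Groups were compared with limma 3.58.1 (lmFit and eBayes, two-sided, R 4.3.3) and Benjamini-Hochberg adjustment over all probe sets. Liver was fitted on its 6 arrays (4 residual degrees of freedom), the segments together on 18 (12), and liver against segments on all 24 (16). An exact permutation of 3 against 3 cannot give a p under 0.1, so none is reported. The fit was tested on simulated data. Intervals are 95% and unadjusted. The 9 genes, the lists and the motifs were chosen with earlier results of these data known. Text names all 9 genes, up to 3 called genes per list and genotype comparison, and the 3 genes most like each member. Alternatives were a trend and robust fit, a filter on dim probe sets, quantile normalization again, median centring, a replicate block, other sets of arrays for the spread, array weights, and leaving out arrays. By genotype the replicate block was fitted on the 6 arrays of the tissue alone, with fewer residual degrees of freedom than the main fit. It joins arrays of different mice, and the labels give no reason to pair them. In jejunum the same-numbered arrays of the genotypes correlated at -0.21 to -0.10, and differently numbered ones at -7.3e-05 to 0.14. Leaving out the arrays rich in stroma markers, and leaving arrays out for the called list genes, were alternatives chosen after seeing the data. The labels do not say whether same-numbered segments came from 1 mouse. Same-numbered segments of 1 genotype correlated at -0.15 to 0.21 (7 of 18 pairs over 0.1) and differently numbered ones at -0.26 to 0.23. In Casp1-null mice alone these ranges were -0.06 to 0.19 and -0.26 to 0.21. Most same-numbered Casp1-null pairs were positive and most differently numbered ones negative, while wild-type pairs of both kinds had mixed signs. These values do not settle whether the numbers pair the samples. The main fit left the samples unpaired, and the replicate block was kept as an alternative. Protein sequences were not used here.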

Additional observations from a re-analysis of the deposited data

How the results depend on the processing

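Of 126 gene-by-comparison values, 29 were called and 21 of these stayed called under every alternative. A further 2, Hamp in wild-type jejunum against duodenum and ileum, stayed called under the others but were removed by the filter on dim probe sets. The other 6 were lost under at least 1 of them: Hamp by genotype in jejunum, Hmox1 between duodenum and jejunum in both genotypes and between duodenum and ileum in Casp1-null mice, Heph between wild-type duodenum and ileum, and Slc46a1 between wild-type jejunum and ileum. None of the 29 turned its sign. Of the 97 uncalled values 13 were called under at least 1 alternative and 34 turned their sign under at least 1. By genotype in jejunum the count of 1 became 0 with a replicate block (Hamp, adjusted p = 0.169) and 0 with the filter on dim probe sets, which left out Hamp and Tfr2 in intestine and Cybrd1 and Heph in liver. Leaving out single arrays gave 0 to 1 called genes by genotype in liver (1 is Hmox1) and in ileum (1 is Slc46a1), and 0 to 1 for the genotype difference of duodenum against jejunum, of ileum against jejunum and of liver against segments (1 is Hamp). The count for Casp1-null jejunum against ileum was 1, and it was 3 with the dim filter, 2 with the replicate block, 2 with arrays of 1 genotype and 1 to 2 without single arrays. Hamp made the count 1 with quantile normalization again for ileum against jejunum and with array weights for liver against segments. The causes of these shifts were not tested.

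Over all probe sets the 258 calls by genotype in liver ran from 92 (replicate block) to 903 (spread from all 24 arrays), and from 71 to 486 without single arrays. The 366 in duodenum fell to 78 with the replicate block and 219 without 1 array, the 581 in jejunum to 30 and 293 (224 on its own 6 arrays), and the 258 in ileum to 0 and 167 (41 on its own 6 arrays). At that 0, limma gave 1695 probe sets with an unadjusted p under 0.05. Between segments the 2119 calls for wild-type duodenum against jejunum fell to 1345 with arrays of 1 genotype and 1208 without 1 array, and the 4191 for wild-type jejunum against ileum to 2773 without the stroma-rich arrays and 2650 without 1 array. In Casp1-null mice the 1413 for duodenum against jejunum fell to 901 and 917, and the 3447 for jejunum against ileum to 2103. The 12, 20, 10 and 713 calls on differences of genotype effects ranged over 5 to 13, 13 to 26, 6 to 15 and 434 to 1105. Median centring moved the split for Casp1-null jejunum against ileum from 1577 higher and 1870 lower to 1869 and 1415, and that of the 10 calls for ileum against jejunum from 5 and 5 to 3 and 6.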

Other observations

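Lists of iron and oxygen sensing and of the hypoxia response had called genes in both directions along the wild-type gut. The list of iron storage had both directions only between duodenum and ileum. Between duodenum and jejunum, where 5.96% of all probe sets were called, the storage list had 2 of 5 genes higher in duodenum and 0 lower, the sensing list 2 of 10 higher and 1 lower, and the hypoxia list 1 of 10 higher and 1 lower. Between duodenum and ileum, where 23% were called, the counts were 2 higher and 1 lower, 6 higher and 1 lower, and 2 higher and 4 lower. The genes named here were chosen after their values were seen, and the first 7 are all the calls of these lists between duodenum and jejunum. Ncoa4, which delivers ferritin for breakdown, was 4.24-fold higher in duodenum (log2 difference 2.08, adjusted p = 3.24e-07), and Fth1, the ferritin heavy chain, was 1.53-fold higher (0.61, adjusted p = 0.000307). Ireb2, an iron regulatory protein, and Epas1, the oxygen-sensing factor, were higher by 1.21 (adjusted p = 0.000266) and 2.03 (adjusted p = 4.96e-07), and Car9, a hypoxia-induced carbonic anhydrase, by 2.43 (adjusted p = 5.14e-07). Hif1a, another oxygen-sensing factor, was lower in duodenum (-0.81, adjusted p = 0.0381, and adjusted p = 0.121 without wild-type duodenal array 1), as was Adm, a hypoxia-induced peptide hormone (-1.87, adjusted p = 0.00888). Against ileum, Nupr1 (-1.68, adjusted p = 0.000669) and Vhl (-0.44, adjusted p = 0.0243) were lower in duodenum. Nupr1 was the 1 gene of the storage list called lower there, and it is not a ferritin gene. In Casp1-null mice the differences between duodenum and jejunum were 1.76 for Ncoa4, 0.53 for Fth1, 1.19 for Ireb2, 1.35 for Epas1 and 2.84 for Car9, each called (adjusted p at most 0.00117), while Hif1a and Adm were not called.

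The 10 other iron transporters and reductases also ran both ways. Between wild-type duodenum and jejunum 3 were higher in duodenum and 1 lower, and between duodenum and ileum 3 were higher and 4 lower. The mitoferrins, which bring iron into mitochondria, ran in opposite directions: Slc25a37 was lower in wild-type duodenum than in jejunum (-1.20, adjusted p = 0.000493) and ileum (-1.88, adjusted p = 1.53e-06), and Slc25a28 was higher than in jejunum (0.60, adjusted p = 0.00395) and ileum (1.43, adjusted p = 2.47e-07). Mcoln1, an endolysosomal cation channel that passes iron, was higher in duodenum than in jejunum (1.01, adjusted p = 3.59e-05) and ileum (0.78, adjusted p = 8.42e-05), as was Slc39a14, a carrier of zinc, manganese and iron, against jejunum (1.22, adjusted p = 0.000245). Steap3, the endosomal ferric reductase that serves transferrin uptake, had a mean of 6.07 in wild-type ileum and 4.86 in wild-type duodenum, where it was not shown above background, a difference of at least 2.29-fold (adjusted p = 3.65e-05). The crypt markers given beside Tfrc were higher in ileum too, and their part was not tested.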
